A study of Mus musculus with 6 samples.

Results

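The proteasome genes described here were taken by symbol: every protein-coding gene whose symbol begins with Psma, Psmb, Psmc, Psmd, Psme, Psmf or Psmg followed by a digit, which gave 50 genes of the 51912 in the table. Primary mouse fibroblasts had been cultured with the chemokine CXCL3 or as controls, both for 48 h, and their RNA was sequenced, 3 libraries in each group. The question of the comparison is how fibroblasts respond to CXCL3. The mice were 6 weeks old, and strain, organ and dose are not given in the labels, nor whether replicates were separate cultures or animals, so that the p-values measure only the spread between these libraries, which may be technical. Levels are in TPM, the share of a gene's transcripts among all transcripts after correction for transcript length, so that levels of different genes can be compared. TPM does not keep the number of reads, so the depth behind each value is unknown and no counting interval is given.

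The proteasome is the barrel-shaped protease that degrades proteins tagged with ubiquitin. Its 20S core is built of stacked rings of alpha subunits (Psma genes), which gate the entry, and beta subunits (Psmb genes), of which Psmb5, Psmb6 and Psmb7 carry the active sites. The 19S regulatory particle, made of ATPases (Psmc genes) and non-ATPase subunits (Psmd genes), binds ubiquitin chains, removes them and unfolds the substrate. In cells exposed to interferon, and constitutively in many immune cells, Psmb8, Psmb9 and Psmb10 replace the catalytic subunits Psmb5, Psmb6 and Psmb7 and form the immunoproteasome, which favours peptides for presentation on MHC class I. Psme genes encode other activators that can cap the core, Psmf1 an inhibitor, and Psmg genes the chaperones that assemble the core. Psmc3ip carries the symbol only because its product binds Psmc3. It acts in meiotic recombination and is no proteasome subunit, and 4 further symbols of the same form were not annotated as protein-coding and were left out.

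Promoters of a constitutive and an induced subunit are shown because the factors known to act on them differ. NFE2L1 raises constitutive subunits through antioxidant response elements when proteasome activity falls, and interferon raises immunoproteasome and activator genes through sites for STAT and IRF factors. The windows run from 250 bases before to 50 bases after the start site, 5′ to 3′ on the gene's strand, from RefSeq on GRCm38.p6, and 42 of the 50 genes had one, with 45 windows between them. Psmb6 lies on the plus strand (chr11:70525107-70525406), and capitals mark a match to the core of the antioxidant response element (TGACNNNGC) from position -9 to -1. Psmb9 lies on the minus strand (chr17:34187281-34187580), and capitals mark a CCAAT box read on the other strand, from -8 to -4. Of Psmb5 (minus strand, chr14:54618004-54618072) the stretch around an antioxidant response element core at -47 to -39 is given, and of Psme1 (plus strand, chr14:55578473-55578542) the stretch around an interferon-stimulated response element core (GAAA, any 2 bases, GAAA, here read on the other strand) at 10 to 19.
Psmb6: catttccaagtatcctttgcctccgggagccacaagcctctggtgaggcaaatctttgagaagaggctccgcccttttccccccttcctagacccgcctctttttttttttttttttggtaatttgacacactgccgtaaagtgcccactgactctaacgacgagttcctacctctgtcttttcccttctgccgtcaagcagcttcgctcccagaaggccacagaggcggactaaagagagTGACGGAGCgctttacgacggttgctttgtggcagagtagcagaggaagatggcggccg
Psmb9: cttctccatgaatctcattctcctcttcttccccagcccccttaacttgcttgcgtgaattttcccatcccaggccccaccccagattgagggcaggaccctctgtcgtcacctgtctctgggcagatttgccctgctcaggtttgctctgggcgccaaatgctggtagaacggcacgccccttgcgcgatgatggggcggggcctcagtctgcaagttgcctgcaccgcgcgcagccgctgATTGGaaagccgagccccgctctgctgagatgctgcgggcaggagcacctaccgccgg
Psmb5: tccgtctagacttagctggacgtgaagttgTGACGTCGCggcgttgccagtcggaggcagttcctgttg
Psme1: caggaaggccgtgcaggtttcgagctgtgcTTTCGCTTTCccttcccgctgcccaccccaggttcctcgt

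Both strands were searched for each of these motifs. The antioxidant response element core was present in 13.3% of the member windows and in 12.4% of all 32851 windows in the table, and the genes with it were Psmb5, Psmb6, Psmc6, Psmd12, Psmd9 and Psme4. The interferon-stimulated core was present in 11.1% of the member windows (Psmb3, Psmd4, Psmd9, Psme1 and Psmg4) and in 3.44% of all windows. It was absent from the windows of Psmb8, Psmb9, Psmb10 and Psme2. CCAAT was present in 33.3% and 37.4%. These matches describe letters in the window and not binding. Psmb9 and the neighbouring peptide transporter gene Tap1 are transcribed away from each other, and their windows share 275 bases.

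The first principal component of all genes tested, the only component examined, did not divide the libraries by treatment. It held 52.9% of the variance and set controls 2 and 3 apart from control 1, which lay beside the 3 CXCL3 libraries. Each library's deviation from the mean correlated across genes with transcript length (Spearman 0.47 in control 1, -0.54 and -0.50 in controls 2 and 3, and 0.21 to 0.42 with CXCL3). Controls also varied more, with a median SD over genes of 0.203 (log2) against 0.0861 for the CXCL3 group. Fibroblast markers were present (7 of 8 tested, summed level 3270 to 5084 TPM in controls and 3752 to 4106 TPM with CXCL3, with Lum under 1 TPM everywhere). All 10 macrophage markers were present as well, at a summed 15291 to 18298 TPM in controls and 14982 to 15078 TPM with CXCL3. Lyz2 alone held 13115 to 16166 TPM of that sum over the 6 libraries, while Ptprc had 13.8 to 20.4 TPM. Adgre1 had 363 to 507 TPM, Cd68 276 to 319 TPM, Cd14 251 to 282 TPM, Itgam 129 to 212 TPM and Csf1r 84.3 to 110 TPM. Fn1 held 1880 to 3008 TPM of the fibroblast sum and Col1a1 567 to 973 TPM. Pdgfra had 9.63 to 16.5 TPM, Pdgfrb 16.9 to 30.3 TPM and Thy1 15.35 to 24.75 TPM. The sums therefore do not measure the share of either cell type. Of the 10 macrophage markers, 4 had a positive and 6 a negative change, and 1, C1qa, passed the test (289 ± 38.6 against 167 ± 5.46 TPM, mean ± SD, n = 3, limma adjusted p = 0.0493). C1qb (300 ± 36.5 against 224 ± 3.79 TPM), C1qc (227 ± 15.5 against 166 ± 4.54 TPM) and Lyz2 did not pass. They were also lower with CXCL3 without overlap, as were the fibroblast marker Dcn and 9.31% of all genes tested. The T cell genes Cd3e and Cd3d were listed at 0 in every library, and endothelial, epithelial and pericyte lists summed to at most 3.64 TPM. Of 4 neutrophil markers, S100a8 had 529 to 669 TPM and Csf3r at least 2.30 TPM, while S100a9 and Ly6g stayed under 1 TPM. In such bulk RNA, fewer cells of a type and less RNA per cell cannot be told apart.

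Proteasome transcripts were abundant in every library. Differences were tested with limma on log2(TPM + 1) over the 13139 genes with at least 1 TPM in at least 3 libraries, and 48 of the 50 members were among them. The median member had a mean level of 116 TPM, against 14.8 TPM for all genes tested. Summed over the members, the level was 6149, 6682 and 6374 TPM in controls 1, 2 and 3 and 6092, 6111 and 6161 TPM with CXCL3. Control 2 was highest, and control 1 fell within the range of the CXCL3 libraries. The members not tested were Psma8, the testis form of an alpha subunit (0.28 to 0.65 TPM), and Psmb11, the beta subunit of the thymoproteasome found in thymic epithelium (0 to 0.02 TPM). Psme2b, a near copy of the activator gene Psme2, passed only through the CXCL3 libraries.

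**Figure D1:**
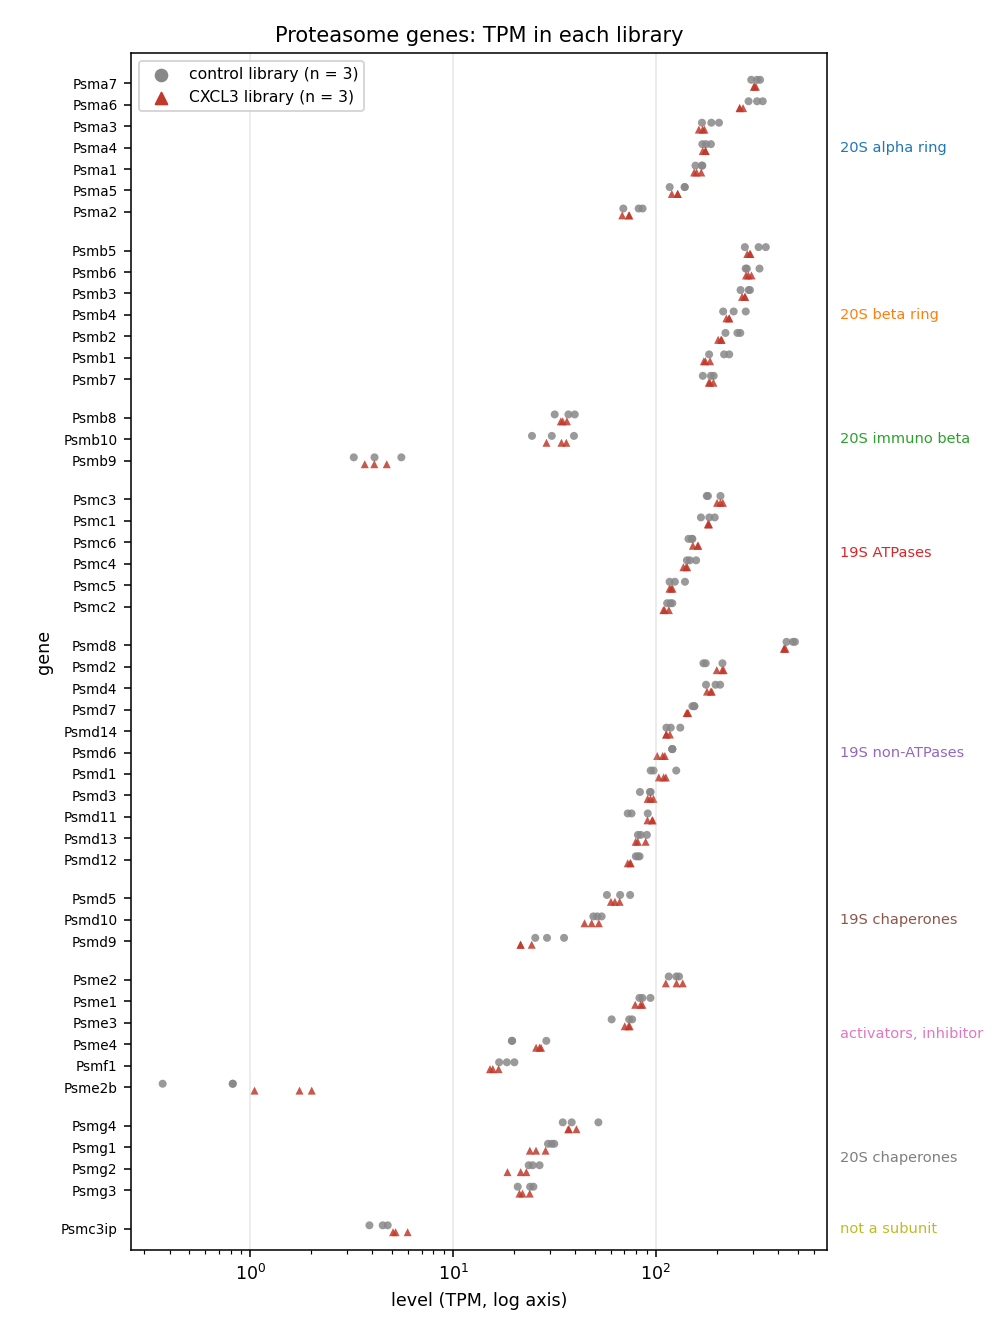
Level of each proteasome gene tested (TPM, log axis) in the 3 control libraries (circles) and the 3 CXCL3 libraries (triangles), grouped by subcomplex. Constitutive core and 19S subunits lie between 75.5 and 449 TPM on average, the immunoproteasome subunits between 4.23 and 35.6 TPM.

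No proteasome gene passed the test. With limma and Benjamini-Hochberg adjustment over all genes, 0 of 48 members had an adjusted p under 0.05 (smallest 0.310, Psma6), against 0.16% of all genes tested (21 genes). An unadjusted limma p under 0.05 was found for 7 members (Psma6, Psmb1, Psmb2, Psmd6, Psmd9, Psmd11 and Psme2b), against 11.6% of all genes. Groups without overlap were found for 13 members. Of these, 3 were higher with CXCL3 (Psmc6, Psmc3ip and Psme2b), against 7.92% of all genes, and 10 were lower (Psma6, Psmb2, Psmd6, Psmd7, Psmd8, Psmd9, Psmd12, Psmf1, Psmg1 and Psmg2), against 9.31% of all genes. That split depended on the scaling: 3 were higher and 2 lower after median-of-ratios scaling (9.53% and 10.2% of all genes), and 7 higher and 5 lower once the trend of every library with the length and GC content of transcripts was removed (10.5% and 11.8%). Psmd6 was lower without overlap in all 3 versions. Psme2b is among the higher ones in each, but it met the filter only through its CXCL3 values, so its place in these counts was favoured by the filter and supports nothing. These counts under other scalings were added after the data were seen.

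The alpha ring of the core ranged from 309.8 TPM for Psma7 to 75.5 TPM for Psma2, a 4.10-fold range. All 7 tested members had a negative log2 fold change (CXCL3 minus control), with a median of -0.06, and 0 passed. After removal of the length and GC trend their median was 0.001. Psma6 had 286, 336 and 315 TPM in controls 1, 2 and 3 and 259, 259 and 269 TPM with CXCL3. Every control lay above every CXCL3 library, and the log2 fold change was -0.25 ± 0.07 (SE, 95% interval -0.42 to -0.08, limma adjusted p = 0.310). Psma7 had 295, 326 and 315 TPM in controls and 304, 311 and 307 TPM with CXCL3, so that its groups overlapped (-0.02 ± 0.06, adjusted p = 0.869). Psma2 had 69.1, 86.0 and 82.2 TPM in controls and 73.6, 68.2 and 74.0 TPM with CXCL3, where control 1 was among the CXCL3 values and controls 2 and 3 above them. Psma1, Psma3, Psma4 and Psma5 showed overlapping groups, with changes from -0.14 (Psma3) to -0.03 (Psma4).

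The beta ring of the constitutive core was the most even group, from 302 TPM for Psmb5 to 185 TPM for Psmb7, a 1.63-fold range. Of 7 members, 6 had a negative change and 1 (Psmb7) a positive one, with a median of -0.10 and 0 passing. After removal of the length and GC trend their median was -0.02, and Psmb3, Psmb6 and Psmb7 were positive. The chymotrypsin-like subunit Psmb5 had 275, 348 and 321 TPM in controls and 282, 293 and 290.2 TPM with CXCL3. Control 1 was the lowest of all 6 libraries and control 2 the highest, and the change was -0.12 ± 0.09 (95% interval -0.33 to 0.10). The caspase-like subunit Psmb6 had 277, 324 and 281 TPM in controls and 278, 286 and 296 TPM with CXCL3 (-0.03 ± 0.08). The trypsin-like subunit Psmb7 had 170.4, 187 and 193 TPM in controls and 182, 185 and 192 TPM with CXCL3 (0.03 ± 0.07). For both the CXCL3 values fell inside the range of the controls. Among the subunits without an active site, Psmb2 had 220.3, 252 and 261 TPM in controls and 203, 209.5 and 211 TPM with CXCL3, without overlap (-0.23 ± 0.08, 95% interval -0.41 to -0.05, limma adjusted p = 0.362). Psmb1 had 183, 229.9 and 217 TPM in controls and 175, 172 and 185 TPM with CXCL3 (-0.23 ± 0.09, adjusted p = 0.420), with control 1 inside the range of the CXCL3 libraries. Psmb3 (-0.04) and Psmb4 (-0.10) had overlapping groups. Psmb7 shares its locus with Nek6 (69.8 TPM) on the opposite strand, and the files do not say whether counting used strand.

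The immunoproteasome subunits were expressed at lower levels than the subunits they replace and did not pass the test. Psmb8, the counterpart of Psmb5, had 31.7, 39.8 and 37.0 TPM in controls and 36.4, 34.7 and 34.0 TPM with CXCL3 (-0.04 ± 0.10, 95% interval -0.28 to 0.20, limma adjusted p = 0.855). Psmb10, the counterpart of Psmb7, had 30.7, 39.5 and 24.5 TPM in controls and 34.2, 36.2 and 28.9 TPM with CXCL3 (0.09 ± 0.17, 95% interval -0.32 to 0.49, adjusted p = 0.812). For both genes the CXCL3 libraries lay within the range of the controls, which were widest for Psmb10. Psmb9, the counterpart of Psmb6, was lower, at 5.56, 4.10 and 3.24 TPM in controls and 4.09, 3.67 and 4.71 TPM with CXCL3 (-0.02 ± 0.19, 95% interval -0.47 to 0.42, adjusted p = 0.959), and its groups overlapped with control 1 highest. Psmb8 (chr17:34197721-34201454, plus strand) and Psmb9 (chr17:34181987-34187764, minus strand) sit in the MHC region on both sides of Tap1, which overlaps Psmb9 and had 4.34 to 6.17 TPM in controls and 4.74 to 5.49 TPM with CXCL3. Macrophages are among the cells known to hold immunoproteasomes, and the part of their RNA in these levels, beside the marker sums given above, was not tested.

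The share of the immunoproteasome form in each catalytic pair was small at all 3 positions. Psmb8 made up 10.4%, 10.3% and 10.3% of the sum of Psmb8 and Psmb5 in the controls and 11.4%, 10.6% and 10.5% with CXCL3, in the order of their replicate numbers. Its groups did not overlap, and the difference of 0.523 percentage points became 0.228 without CXCL3 library 1, the highest, and 0.167 after removal of the length and GC trend. Exact permutation of 3 against 3 libraries cannot give a two-sided p under 0.1. Psmb10 made up 15.3%, 17.4% and 11.3% of the sum with Psmb7 in controls and 15.8%, 16.4% and 13.1% with CXCL3, the widest spread of the 3 pairs, with the groups overlapping. Psmb9 made up 1.97%, 1.25% and 1.14% of the sum with Psmb6 in controls and 1.45%, 1.27% and 1.57% with CXCL3, also overlapping. The sign of both differences turned when single libraries were left out: that of Psmb10 (0.422 points) was -1.27 without control 3 and -0.225 without CXCL3 library 2, and that of Psmb9 (-0.0245 points) was 0.233 without control 1 and 0.0550 without CXCL3 library 2. The coding sequences of the pairs were 63.4% to 68.1% identical (Psmb10 with Psmb7 and Psmb8 with Psmb5).

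**Figure D2:**
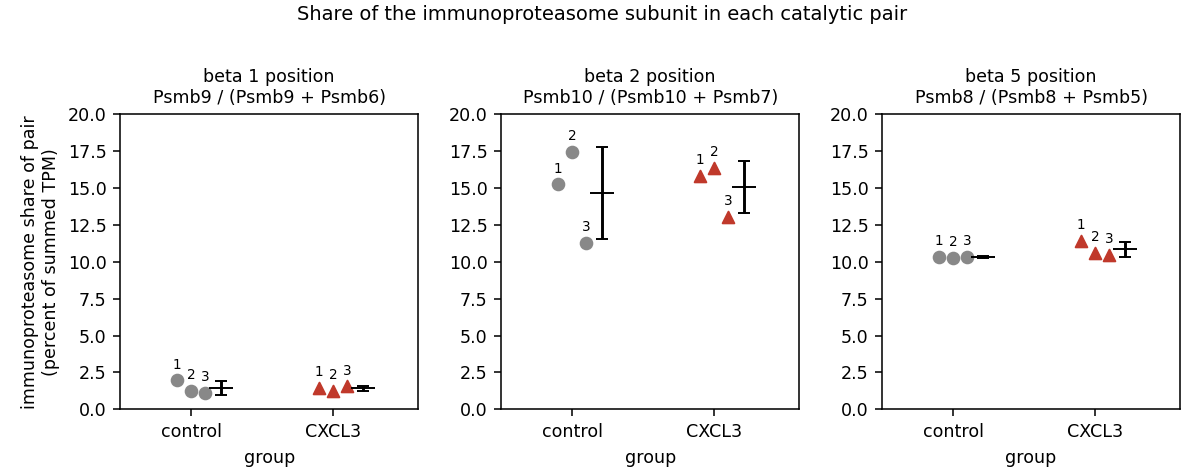
Share of the immunoproteasome subunit in each catalytic pair (percent of the summed TPM of both genes), by library, with replicate numbers, and mean ± SD of 3 libraries beside them. The share is highest for Psmb10 and lowest for Psmb9, and the groups are apart for Psmb8 alone.

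The ATPases of the 19S particle lay close together, from 198 TPM for Psmc3 to 115 TPM for Psmc2, a 1.73-fold range. Their changes went both ways (3 positive, 3 negative, median -0.03), and 0 of 6 passed. Psmc3 had 208, 180.5 and 178 TPM in controls and 214, 200.3 and 208 TPM with CXCL3 (0.14 ± 0.08, limma adjusted p = 0.478). Control 1 was level with the CXCL3 libraries and controls 2 and 3 were below all of them. Psmc6 had 151, 145 and 150.4 TPM in controls and 152, 161 and 162 TPM with CXCL3, apart by less than 1 TPM at the nearest libraries (0.09 ± 0.06, adjusted p = 0.524). Psmc2 had 114, 121 and 118 TPM in controls and 110.3, 109 and 116 TPM with CXCL3, with overlap (-0.07 ± 0.07). Psmc1, Psmc4 and Psmc5 changed by 0.002, -0.09 and -0.09 with overlapping groups. Psmc3 overlaps Slc39a13 (63.2 TPM) on the opposite strand.

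The non-ATPase subunits held the most abundant member, Psmd8 of the lid at 449 TPM, and ranged down to 77.8 TPM for the lid subunit Psmd12, a 5.77-fold range. Of 11 members, 7 had a negative and 4 a positive change (median -0.07), and 0 passed. Psmd8 had 441, 485 and 474 TPM in controls and 428, 429 and 436 TPM with CXCL3 (-0.11 ± 0.06, 95% interval -0.26 to 0.03). Psmd6, another lid subunit, had 121, 120.2 and 120.4 TPM in controls and 108, 111 and 102 TPM with CXCL3 (-0.17 ± 0.07, 95% interval -0.33 to -0.02, limma adjusted p = 0.392). Psmd12 had 79.6, 83.1 and 81.6 TPM in controls and 72.7, 74.7 and 75.1 TPM with CXCL3 (-0.13 ± 0.07, adjusted p = 0.457). In these 3 genes, as in Psmd7 (154 ± 1.91 against 143 ± 1.28 TPM), every control lay above every CXCL3 library, and the controls of Psmd6 and Psmd7 were the closest together of the members tested, relative to their mean. Psmd11 and Psmd2 lay in the other direction. Psmd11 of the lid had 91.2, 72.7 and 75.9 TPM in controls and 96.5, 95.8 and 90.9 TPM with CXCL3 (0.24 ± 0.10, 95% interval 0.02 to 0.47, adjusted p = 0.420). Psmd2, the large scaffold of the base, had 213, 172 and 176 TPM in controls and 216, 212 and 199.7 TPM with CXCL3 (0.17 ± 0.09, adjusted p = 0.473). In both, control 1 lay among the CXCL3 libraries and controls 2 and 3 were below them. The ubiquitin receptor Psmd4 and the deubiquitinase Psmd14 (-0.07 and -0.08) and Psmd1, Psmd3 and Psmd13 (0.04, 0.06 and -0.03) had overlapping groups.

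The balance of the particles followed the same division of the controls. Mean TPM per 19S subunit (17 genes) over mean TPM per constitutive 20S subunit (14 genes) was 0.756, 0.646 and 0.653 in the controls and 0.733, 0.731 and 0.707 with CXCL3. The CXCL3 libraries lay between control 1 and the other controls. The median deviation of the 20S genes from their own mean over all libraries was -0.07, 0.16 and 0.08 in controls 1, 2 and 3 and lay from -0.07 to -0.02 with CXCL3 (log2). For the 19S genes it was 0.02, 0.07 and -0.03 in the controls and -0.05 to -0.009 with CXCL3, a narrower range. The median transcript length was 1162.5 bases for the 20S genes and 1819 bases for the 19S genes.

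**Figure D3:**
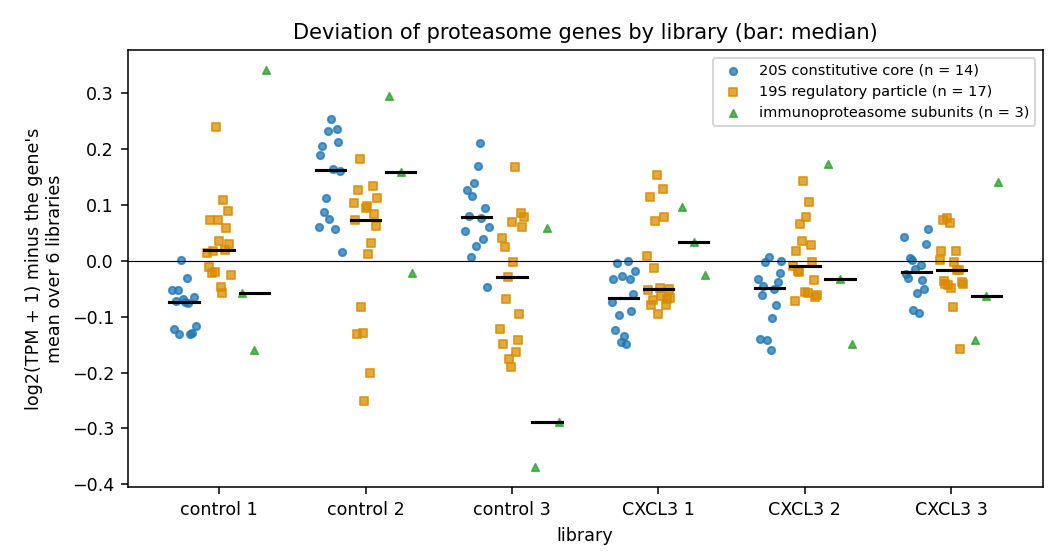
Deviation of each proteasome gene from its own mean over 6 libraries (log2 of TPM + 1), by library, for the constitutive 20S core, the 19S particle and the immunoproteasome subunits, with the median as a bar. The 20S genes are high in controls 2 and 3 and low in control 1, and the CXCL3 libraries resemble control 1.

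Among the activators, Psme1 and Psme2, which together form the interferon-inducible PA28 cap, had similar levels in both groups. Psme1 had 83.0, 94.0 and 85.8 TPM in controls and 79.1, 84.1 and 85.8 TPM with CXCL3 (-0.08 ± 0.08, limma adjusted p = 0.635). Psme2 had 126, 130.0 and 116 TPM in controls and 136, 112 and 126 TPM with CXCL3 (0.006 ± 0.09, adjusted p = 0.978). Both overlapped, and they lie next to each other on chromosome 14 (chr14:55578123-55581529 and chr14:55587441-55591113). Psme3, which encodes the nuclear PA28 form, had 76.4, 60.5 and 73.9 TPM in controls and 74.3, 73.3 and 70.2 TPM with CXCL3 (0.05 ± 0.10), and control 2 was the lowest library. Psme4, which encodes the PA200 activator, had 28.8, 19.5 and 19.6 TPM in controls and 26.7, 27.1 and 25.7 TPM with CXCL3 (0.24 ± 0.16, adjusted p = 0.502). Control 1 was above all CXCL3 libraries and the other controls below them, and at 6491 bases Psme4 has the longest transcript among the members tested. Its change was 0.03 without the length and GC trend. Psmf1, the inhibitor PI31, had 18.4, 20.1 and 16.9 TPM in controls and 15.7, 15.2 and 16.8 TPM with CXCL3, just apart (-0.20 ± 0.11, adjusted p = 0.470).

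Psme2b was near the filter limit. It had 0.82, 0.82 and 0.37 TPM in controls and 1.75, 2.01 and 1.05 TPM with CXCL3 (0.63 ± 0.21, limma adjusted p = 0.349). All controls were under 1 TPM and all CXCL3 libraries over it, and since only the CXCL3 values brought the gene into the test, nothing is read from its direction. Its coding sequence matched that of Psme2 at 715 of 720 bases (99.3%), and Psme2 had a mean of 124 TPM. How reads were divided between these copies cannot be told from the table, so the value of Psme2b is uncertain. Psmc3ip had 3.87, 4.76 and 4.50 TPM in controls and 5.21, 5.06 and 5.97 TPM with CXCL3 (0.26 ± 0.14, adjusted p = 0.472), also apart. It overlaps Mlx (27.5 TPM) on the opposite strand.

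The assembly chaperones were less abundant than the constitutive core and 19S subunits, and all 7 had a negative change with 0 passing. After removal of the length and GC trend Psmg3 was positive (0.04) and the other chaperones stayed negative. Among the chaperones of the 19S base, Psmd9 had 25.4, 35.3 and 29.0 TPM in controls and 24.4, 21.5 and 21.5 TPM with CXCL3, the most negative change of the members (-0.39 ± 0.13, 95% interval -0.70 to -0.08, limma adjusted p = 0.362). All controls were above the CXCL3 libraries, control 1 by about 1 TPM, and the locus is shared with Gm26745 (21.1 TPM) on the opposite strand. Psmd5 had 66.7, 57.4 and 74.7 TPM in controls and 62.8, 66.3 and 60.0 TPM with CXCL3 (-0.06 ± 0.11), and Psmd10, also known as gankyrin, changed by -0.09, both with overlap. Among the chaperones of the core, Psmg2 had 23.6, 26.7 and 24.7 TPM in controls and 21.6, 23.0 and 18.6 TPM with CXCL3 (-0.24 ± 0.11, adjusted p = 0.443). Its partner Psmg1 had 29.4, 31.6 and 30.6 TPM in controls and 23.9, 25.6 and 28.6 TPM with CXCL3 (-0.22 ± 0.10, adjusted p = 0.429). Both pairs of groups were apart. Psmg4 had 34.7, 52.1 and 38.5 TPM in controls and 37.0, 40.6 and 37.3 TPM with CXCL3, and Psmg3 had 20.8, 24.9 and 24.0 TPM in controls and 22.0, 23.9 and 21.3 TPM with CXCL3. These overlapped, with changes of -0.10 and -0.05.

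**Figure D4:**
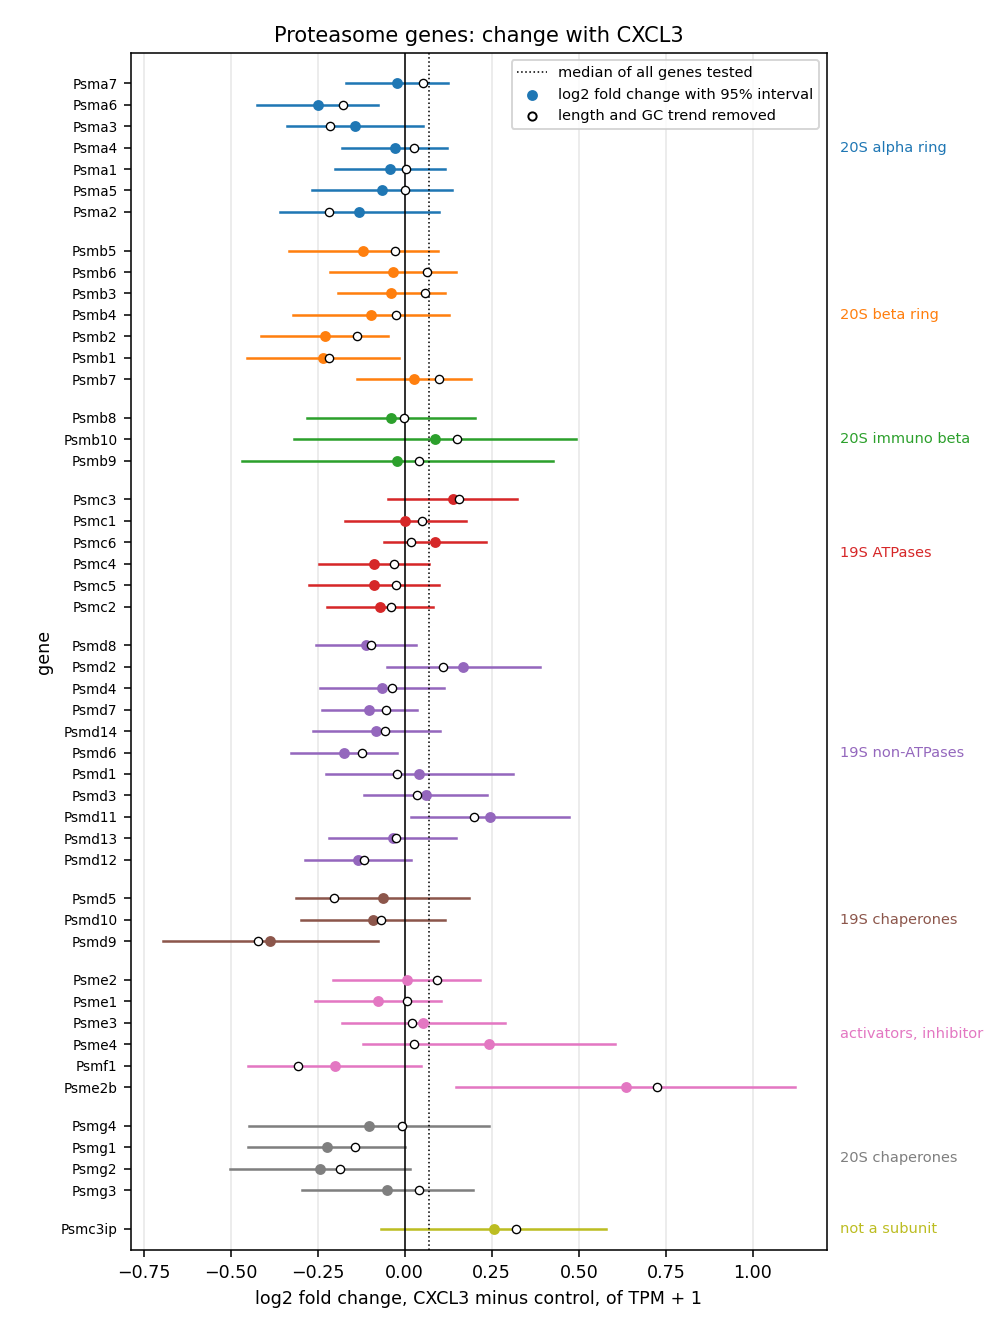
Log2 fold change (CXCL3 minus control, of TPM + 1) of each member tested, with its 95% interval, by subcomplex. Open circles give the change after removal of the length and GC trend, and the dotted line is the median of all genes tested (0.07). Most intervals include 0.

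Over all members the change was small and mostly negative. The median log2 fold change was -0.06, with 34 negative and 14 positive, while the median over all genes tested was 0.07 and 37.7% of them were negative. Median-of-ratios scaling moved the median of all genes to -0.005 and that of the members to -0.15, with 40 members negative. With the length and GC trend removed, the medians were -0.003 and -0.02, with 26 members negative. Member transcripts are short (median 1435 bases, against 2959.5 bases for all genes). The 36 members under 2000 bases had a median of -0.07, as did all genes of that length, and the 12 members of at least 2000 bases had 0.05, against 0.12 for all such genes. Across the 48 members, which share their libraries, the Spearman correlation of change and length was 0.10, against 0.47 across 13114 genes.

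The size of the shift and the genes that passed depended on which controls were used. The members' median was -0.10 without control 1, -0.02 without control 2 and -0.07 without control 3, negative each time. Controls 2 and 3 were both above all CXCL3 libraries for 25 of 48 members (52.1%, against 16.0% of all genes) and both below for 8 (16.7%, against 44.5%). Control 2 exceeded control 1, a library of its own group, in 37 members (77.1%, against 27.3% of all genes). Without control 1, 12 members passed with limma. Of these, 4 were higher (Psmc3, Psmd2, Psmd11 and Psme4), against 25.2% of all genes, and 8 were lower (Psma2, Psma3, Psma6, Psmb1, Psmb2, Psmb5, Psmd8 and Psmd9), against 7.17%. Their changes ran from -0.49 ± 0.11 for Psmd9 (adjusted p = 0.0168) to 0.42 ± 0.07 for Psme4 (adjusted p = 0.00737). With library weights, which gave control 1 the lowest weight, 4 passed: Psmd11 was higher (0.31 ± 0.07, adjusted p = 0.0407), against 7.96% of all genes, and Psma6, Psmb1 and Psmb2 were lower (-0.29 to -0.30, adjusted p 0.0355 to 0.0408), against 3.04%. Without controls 2 and 3, which left control 1 as the only control, the members' median was -0.009 and that of all genes was -0.08.

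Genes that work with the proteasome gave no call either. Only 0.16% of all genes tested passed, so that 0 in lists this short says little about them. Of all genes, 37.7% had a negative change, beside which the signs below are to be read. Of proteasome-associated proteins outside the symbol rule, 10 were tested, 4 positive and 6 negative with 0 passing, and the smallest adjusted p was 0.429 for the scaffold Ecpas (26.1 ± 4.06 against 31.8 ± 1.47 TPM). Pomp, the maturation factor of the core, had 230.1 ± 33.4 against 201 ± 4.44 TPM. In the pathway of NFE2L1, 7 of 9 genes were positive with 0 passing (median 0.08), but 3 of 9 were positive once the length and GC trend was removed (median -0.02). Ddi2 had the smallest limma adjusted p of that list (0.493), at 11.4 ± 3.88 against 14.2 ± 0.863 TPM with overlap. Nfe2l1 itself had 309.5, 203 and 181 TPM in controls and 264, 257 and 249 TPM with CXCL3, which lay between control 1 and the other controls. Ubiquitin genes and their activating enzymes gave 5 positive and 1 negative of 6 (smallest adjusted p 0.422, Uba6), and the ubiquitin shuttle factors 6 positive of 6, with 0 passing in both lists. Ddi2 is counted in the NFE2L1 list and again among the shuttle factors. In each shuttle factor controls 2 and 3 were below all CXCL3 libraries, as in 44.5% of all genes, while control 1 was not. Without the length and GC trend, the proteasome-associated list had 2 positive and 8 negative, the ubiquitin list 4 and 2, and the shuttle factors 6 positive of 6. Of 8 interferon-inducible genes of antigen processing, 4 were positive and 4 negative with 0 passing, and 1 was positive and 7 negative without that trend. Tapbp, which encodes the peptide-loading factor tapasin, was the only one whose groups did not overlap (65.0 ± 6.96 against 54.7 ± 3.67 TPM, log2 fold change -0.24 ± 0.10, limma adjusted p = 0.424). Of all genes tested, 9.31% were lower without overlap. B2m, the light chain of MHC class I, had 1743 ± 186 against 1591 ± 28.4 TPM with overlap. Nlrc5 went the other way, with 5.64, 2.90 and 3.02 TPM in controls and 5.10, 5.06 and 5.59 TPM with CXCL3. Its log2 fold change was 0.41 ± 0.22 (limma adjusted p = 0.472), and 0.16 without the length and GC trend.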

How the data were processed

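RNA sequencing of 3 control and 3 CXCL3 libraries was analysed, with groups and replicate numbers taken from the labels. Levels were deposited as TPM in 1 table of 51912 genes (0 columns belonged to other samples). Per the submitters' processing notes, fastp, HISAT and RSEM were used with the build GRCm38.p5, and no tool version is named. The sources used here do not give the annotation release or the use of strand in counting. The library columns sum to between 984281 and 986705 TPM, and no 2 columns were identical.

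Genes were matched to GENCODE M21 (GRCm38.p6), which gave a symbol for 51719. Transcript length and GC content are those of the longest protein-coding transcript, or of the longest of any type where a gene had none. The test was limma 3.58.1 (R 4.3.3) on log2(TPM + 1), for genes that reached 1 TPM in 3 or more of the 6 libraries (eBayes with trend, two-sided, Benjamini-Hochberg adjustment over 13139 genes, threshold 0.05). A fold change on this scale understates that of low genes. Coding identity was computed from the longest reading frames, and protein sequences were not used here. The rule for genes given by library took the catalytic pairs, the activators and inhibitor, the highest and lowest member of each subcomplex and the 5 largest changes in each direction, and for each related list up to 3 genes with the smallest p. Psmc6, Psmd6, Psmd7 and Psmg1 were added after their values were seen, because their groups did not overlap, as were C1qb, C1qc and Dcn. Also added then were C1qa, which passed, and Tap1, which overlaps Psmb9. A marker list that includes a gene not reported here was left out. The members and all lists were chosen with earlier results of these data known.

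The alternatives were pseudocounts of 0.1 and 5, no filter on low values or one at 5 TPM, quantile normalization, median-of-ratios scaling, eBayes without trend, library weights (whose estimation did not fully converge), removal of each library's loess trend with length and GC content, the replicate number as a block, and leaving out libraries. The fit was tested on simulated data.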

Additional observations from a re-analysis of the deposited data

How the results depend on the processing

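Of 18 alternatives, 16 gave 0 proteasome genes passing. The exceptions were library weights with 4 and the fit without control 1 with 12, so that the count ranged from 0 to 12 when single libraries were left out. The fit without controls 2 and 3, among the 16, kept a single control, so nothing is read from its count. Over all genes the count of 21 became 4 with median-of-ratios scaling, 0 with no filter, 1 without the trend in eBayes, 1446 with library weights, 53 after removal of the length and GC trend, 84 without controls 2 and 3, and from 0 to 4254 when 1 library was left out. The members' median of -0.06 became -0.15 with median-of-ratios scaling, -0.0156 after the length and GC trend was taken out, and -0.00923 without controls 2 and 3. The 13 members with groups apart, against 17.2% of all genes, became 5 with median-of-ratios scaling, against 19.8%. They became 14 to 33 when 1 library was left out. The 33 were found without control 1, where 60.5% of all genes were apart. Leaving out any other library gave 21.9% to 26.0% of all genes. These alternatives were chosen after seeing the data. In 28 of 48 members the sign of the change turned in at least 1 alternative, and 20 kept it in all of those run. None of the 13 members with groups apart was among the 28. For such genes most alternatives, such as leaving out or weighting libraries, cannot turn the sign. Only the changes of scaling or removal of trends could have done so, so nothing is read from this. The cause of the shifts between alternatives was not tested.

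With the replicate number as a block (replicate block), 0 members and 12 genes of all passed, and with that block plus removal of the length and GC trend 0 members and 1 gene, at a members' median of -0.0156. Same-numbered libraries did not deviate together throughout (correlations of 0.12, -0.01 and 0.08), so the numbers were not taken as pairs. TPM gives no depth, so the precision of low members such as Psmb9 and Psme2b rests on the spread of 3 libraries alone.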
